A study of Homo sapiens with 6 samples.

Results

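Amino acids enter and leave human cells through carriers of the solute carrier (SLC) families, and the 32 genes described here are the listed carriers of the plasma membrane and the lysosome. They were taken by name from a list, with no threshold on a measured value, and each had exactly 1 of the 60651 gene rows. The list was chosen with earlier results of these data known. They comprise 2 heavy chains, 5 light chains that pair with a heavy chain, 2 cationic amino acid carriers, 5 carriers of the SLC1 family, 4 of the SLC6 family, 9 of the SLC38 family, 3 uniporters and 2 proton-coupled carriers. RNA was measured in MDA-MB-231, an established human triple-negative breast cancer line of wild-type genotype per the labels. Cells grew in a serum-containing medium and were given DMSO alone as solvent control, or the extract AF-EAE at 75 or 150 µg/ml, for 24 h. AF-EAE was made from Antenoron filiforme, a herb, with ethyl acetate, and its constituents are not known from the labels. Each of the 3 groups had 2 libraries, 6 in all. The title of the study places the extract in the control of cell proliferation, and all results come from 1 cell line and 1 time point. Only RNA was measured, so neither the protein, nor its place in the cell, nor transport is known from these data.

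The libraries held 15621103 to 17113722 reads counted in genes, and the 2 libraries of a group correlated at 0.99 to 0.991 over log2 CPM across genes. Of the markers of the line, 6 mesenchymal genes summed to 3750 and 3650 CPM with DMSO, 2690 and 2640 CPM at 75 µg/ml and 1990 and 2050 CPM at 150 µg/ml. The labels call the cells epithelial, yet CDH1, the epithelial cadherin, averaged 0.0403 CPM while the keratin gene KRT8 averaged 390 CPM. Leukocyte markers summed to 0.196 to 0.427 CPM, with 3 of 6 at 0 in all libraries. Of the 6 mesenchymal genes, 4 were lower at 75 µg/ml and 5 at 150 µg/ml. Of all tested genes, 19.2% were higher and 19.4% lower at 75 µg/ml, and 25.8% higher and 25.7% lower at 150 µg/ml. The 8 epithelial genes summed to 858 and 868 CPM with DMSO, 679 and 661 CPM at 75 µg/ml and 581 and 557 CPM at 150 µg/ml. The epithelial list did not move as one, with 2 genes higher and 2 lower of 7 tested at 75 µg/ml (median log2 fold change 0.27) and 3 higher and 2 lower at 150 µg/ml (median 0.24), the lower ones being KRT8 and KRT18. These sums moved with dose alongside the transporter changes described next, and their part in them was not tested. In bulk RNA, fewer cells in a given state and less RNA per cell cannot be told apart.

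Carriers of this kind fall into mechanistic types. In heteromeric transporters, a light chain of the SLC7 family carries the amino acid and a glycoprotein heavy chain of the SLC3 family brings it to the cell surface. Exchangers trade one amino acid for another, sodium-coupled carriers of the SLC1, SLC6 and SLC38 families concentrate amino acids inside the cell, and carriers on the lysosome move amino acids out of it or report on them to the growth kinase mTORC1. When amino acids run short, the kinase GCN2 and the transcription factor ATF4 raise a set of genes in which several of these carriers are classical members, and carcinoma cells are known for high levels of the leucine and cystine exchangers.

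Most of the measured carriers changed with the extract, and more rose than fell. Of the 32 genes, 25 had enough reads to be tested and 7 did not. At 75 µg/ml against DMSO, 14 were higher and 4 lower, 18 of 25 or 72%, whereas 38.6% of all 15589 tested genes were called, 19.2% higher and 19.4% lower. At 150 µg/ml against DMSO, 14 were higher and 5 lower, 19 of 25 or 76%, with 51.5% of all tested genes called, 25.8% higher and 25.7% lower. A gene was called at an adjusted p under 0.05 from edgeR's quasi-likelihood F-test over all tested genes, with Benjamini-Hochberg adjustment. The share of carriers called lower was thus no larger than that of all genes, while the share called higher was larger. No test of the list was made, and its choice with earlier results known makes these shares descriptions.

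The median log2 fold change of the 25 tested carriers was 0.29 at 75 µg/ml and 0.33 at 150 µg/ml, beside 0.01 and 0.03 over all tested genes. The same 14 carriers were higher at both doses, and 3 were lower at both, namely SLC7A1, SLC7A2 and SLC7A6. SLC38A2 was lower at 75 µg/ml without a call at 150 µg/ml, and SLC1A3 and SLC38A4 were lower at 150 µg/ml without a call at 75 µg/ml. The doses share the DMSO libraries, so the values at each dose are not independent of those at the other. Scaling to total gene counts moved the median of all genes to 0.14 and 0.22 and gave 14 higher and 3 lower carriers at 75 µg/ml and 16 higher and 5 lower at 150 µg/ml. Under that scaling 71.2% and 70.3% of all calls against DMSO were higher, where TMM scaling gave 49.7% and 50.1%.

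**Figure D1:**
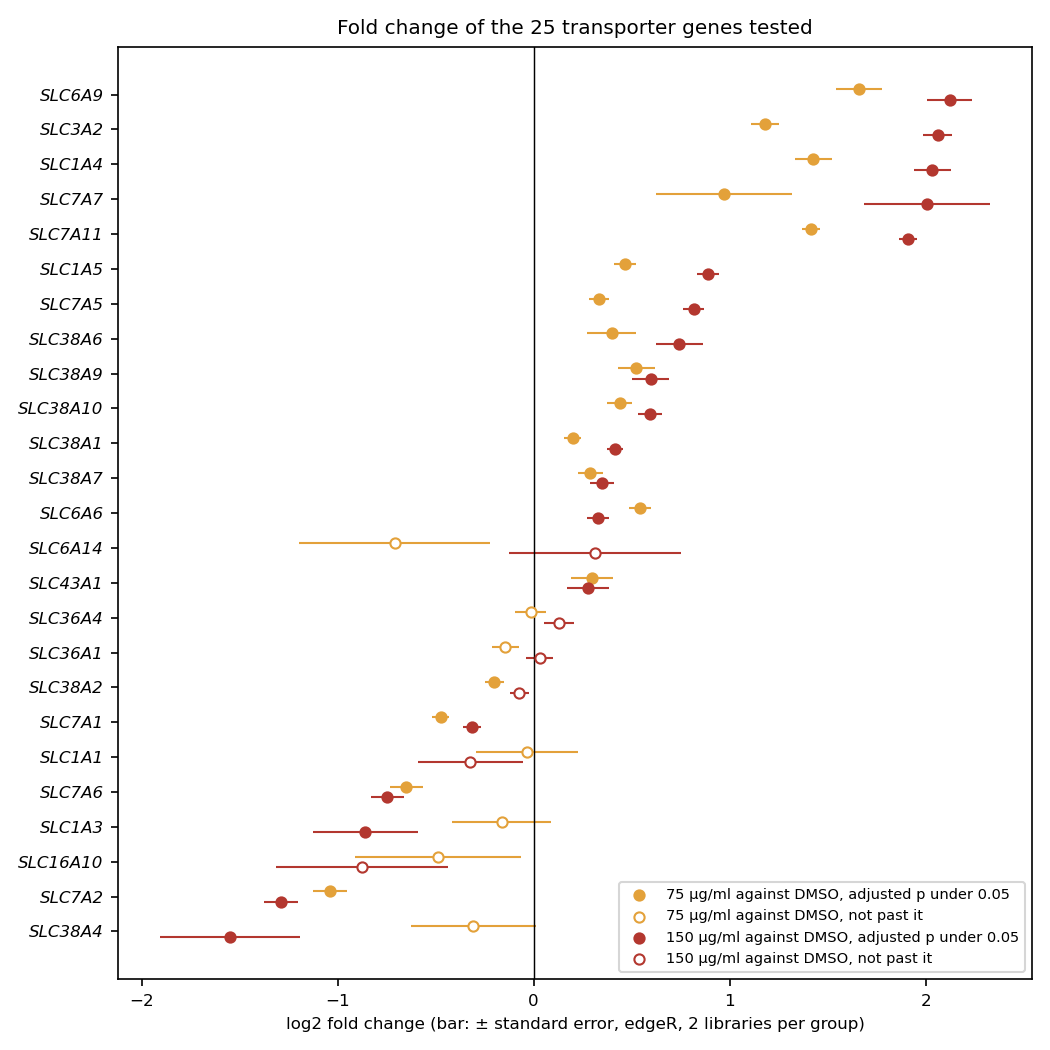
Log2 fold change against DMSO of the 25 tested carriers at 75 and 150 µg/ml, with bars for the standard error, filled points for an edgeR adjusted p under 0.05, open points for the rest, and the carriers in order of their change at 150 µg/ml. At 150 µg/ml 5 carriers (SLC6A9, SLC3A2, SLC1A4, SLC7A7 and SLC7A11) lie at or above a change of 1 on the log2 scale in the rising direction, and SLC7A2 and SLC38A4 lie beyond it in the falling direction.

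Among the heteromeric transporters, the shared heavy chain rose together with 3 of its 4 tested light chains, and 1 light chain fell. SLC3A2 (ENSG00000168003.18, chr11:62856102-62888875, plus strand) encodes CD98 heavy chain, the partner of all SLC7 light chains measured here. It had 357 and 298 CPM with DMSO, 755 and 729 CPM at 75 µg/ml and 1472 and 1267 CPM at 150 µg/ml, where CPM are reads of a gene scaled to a common library total with TMM factors. The 3 groups did not overlap, and each dose stood above the one before it. SLC3A2 was 2.27-fold higher at 75 µg/ml (log2 1.18, SE 0.0731, edgeR adjusted p = 1.64e-09) and 4.18-fold higher at 150 µg/ml (log2 2.06, SE 0.0741, edgeR adjusted p = 4.46e-13). The other heavy chain, SLC3A1, the partner of a kidney and gut light chain, had 0 to 1 read per library. Of its exon length, 54.6% overlaps other genes including PREPL on the opposite strand, so reads there could have been set aside in counting.

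SLC7A11 (ENSG00000151012.13, chr4:138164097-138242349, minus strand) encodes xCT, which takes up cystine in exchange for glutamate and so feeds glutathione synthesis. It had 264 and 256 CPM with DMSO, 695 and 691 CPM at 75 µg/ml and 1003 and 954 CPM at 150 µg/ml. The libraries of a group lay close together and the groups were far apart. The rise was 1.41 on the log2 scale at 75 µg/ml (SE 0.0457, edgeR adjusted p = 5.75e-13) and 1.91 at 150 µg/ml (SE 0.046, edgeR adjusted p = 4.91e-15). A further gene on the opposite strand, SLC7A11-AS1, overlaps 8.97% of its exon length.

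SLC7A5 (chr16:87830023-87869488, minus strand) encodes LAT1, the exchanger that brings in leucine and other large neutral amino acids. Its level was 563 and 502 CPM with DMSO, 661 and 682 CPM at 75 µg/ml and 964 and 912 CPM at 150 µg/ml, again without overlap between groups. The increase was smaller than that of its heavy chain at 75 µg/ml (log2 0.33, SE 0.0526, edgeR adjusted p = 7.74e-05) and at 150 µg/ml (log2 0.82, SE 0.0526, edgeR adjusted p = 7.48e-10), a difference between genes that was not tested. The pseudogene rows SLC7A5P1 and SLC7A5P2 had 0 reads in all libraries.

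The pair of y+L-type light chains, which export arginine or lysine in exchange for neutral amino acids and sodium, went in opposite directions. SLC7A6 (y+LAT2) had 52.5 and 54.8 CPM with DMSO, 31.9 and 36.5 CPM at 75 µg/ml and 32.5 and 31.4 CPM at 150 µg/ml. Both doses stood below DMSO and overlapped each other. It fell by 0.65 on the log2 scale at 75 µg/ml (SE 0.0853, edgeR adjusted p = 1.11e-05) and by 0.75 at 150 µg/ml (SE 0.0856, edgeR adjusted p = 1.12e-06). Since 55.6% of its exon length overlaps genes on the other strand, its CPM may be a lower estimate. Its neighbour SLC7A6OS was not called at 75 µg/ml (log2 -0.21, edgeR adjusted p = 0.0997) or at 150 µg/ml (log2 0.10, edgeR adjusted p = 0.432).

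SLC7A7 (y+LAT1) was a low gene, with 14 and 21 reads with DMSO, 38 and 35 at 75 µg/ml, then 66 and 88 at 150 µg/ml. The gene was 2.01 higher on the log2 scale at 150 µg/ml (SE 0.322, edgeR adjusted p = 4.95e-05). At 75 µg/ml the difference of 0.97 (SE 0.346, edgeR adjusted p = 0.0347) was no longer called with DESeq2 (adjusted p = 0.0937) or with limma-voom (adjusted p = 0.0548). Without the first DMSO library it was 0.68 (edgeR adjusted p = 0.221), and without the first library at 75 µg/ml it was 0.89 (edgeR adjusted p = 0.121). SLC7A8, a light chain for neutral amino acids, had 1 read in 1 library at 150 µg/ml and 0 in the rest.

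**Figure D2:**
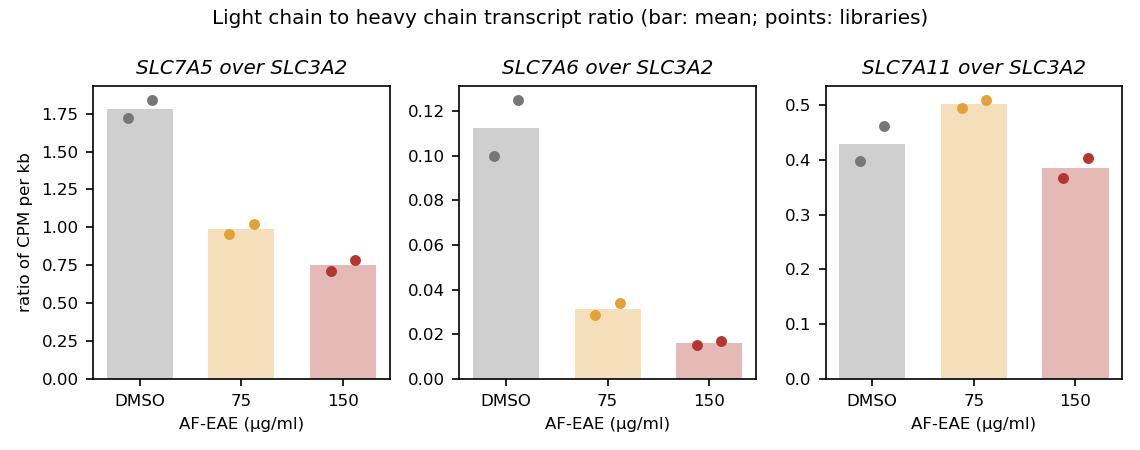
Ratio of each light chain to the heavy chain SLC3A2 in CPM per kilobase of exon, with points for libraries, bars for the mean and the groups in order of dose. The ratios of SLC7A5 and SLC7A6 lie below those of DMSO at both doses, while the SLC7A11 ratio at 150 µg/ml (0.366 and 0.404) overlaps the DMSO range (0.397 and 0.461).

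Per kilobase of exon, light chains could be set against the heavy chain within each library. SLC7A5 over SLC3A2 was 1.72 and 1.84 with DMSO, 0.955 and 1.02 at 75 µg/ml, then 0.715 and 0.786 at 150 µg/ml. SLC7A6 over SLC3A2 was 0.1 and 0.125 with DMSO, 0.0288 and 0.0341 at 75 µg/ml, then 0.0151 and 0.0169 at 150 µg/ml. SLC7A11 over SLC3A2 was 0.397 and 0.461 with DMSO, 0.494 and 0.509 at 75 µg/ml, then 0.366 and 0.404 at 150 µg/ml. The heavy chain transcript thus gained on LAT1 and y+LAT2 at each dose, whereas the xCT ratio showed no such order. The ratios were not tested. The absolute ratios depend on the transcript length used, and with the longest transcript in place of the union of exons the means at 150 µg/ml were 0.337 for SLC7A5, 0.00826 for SLC7A6 and 0.165 for SLC7A11.

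Both carriers of cationic amino acids fell, in contrast to xCT and its heavy chain. SLC7A1 (CAT1, ENSG00000139514.13, chr13:29509410-29595688, minus strand) is the widely expressed carrier of arginine, lysine and ornithine. It had 557 and 549 CPM with DMSO, 404 and 393 CPM at 75 µg/ml and 455 and 434 CPM at 150 µg/ml. All treated libraries were below DMSO, and the lower dose gave the lowest values. SLC7A1 fell by 0.47 on the log2 scale at 75 µg/ml (SE 0.0449, edgeR adjusted p = 2.78e-07) and by 0.32 at 150 µg/ml (SE 0.0447, edgeR adjusted p = 1.33e-05). SLC7A1 at 150 µg/ml was higher than at 75 µg/ml by 0.16 (SE 0.045, edgeR adjusted p = 0.0179), a call that was lost without the first library at 150 µg/ml (adjusted p = 0.144), without the first at 75 µg/ml (adjusted p = 0.0507) and without the second at 75 µg/ml (adjusted p = 0.146).

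SLC7A2 (CAT2), the second cationic carrier, is known for supplying arginine to nitric oxide synthesis in activated immune cells. Its values were 78 and 71.1 CPM with DMSO, 33.5 and 39 CPM at 75 µg/ml and 31.8 and 29.2 CPM at 150 µg/ml. The DMSO libraries stood far above the rest, and the doses lay close to each other without overlap. It fell by 1.04 on the log2 scale at 75 µg/ml (SE 0.0872, edgeR adjusted p = 7.02e-08) and by 1.29 at 150 µg/ml (SE 0.0887, edgeR adjusted p = 1.76e-09). SLC7A11 and SLC7A1 were listed together because they moved in opposite directions in earlier results of these data, so their opposition here is a description. Per kilobase, SLC7A11 over SLC7A1 was 0.378 and 0.372 with DMSO, 1.37 and 1.4 at 75 µg/ml, then 1.76 and 1.75 at 150 µg/ml.

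Sequence around RefSeq transcription starts was searched for a pair of motifs tied to these carriers. The first, TGATGNAA, is the core of the composite C/EBP and ATF element through which ATF4 acts on genes of amino acid shortage. The second, TGACNNNGC, is the core of the antioxidant response element bound by NRF2, a regulator of SLC7A11. Both strands were read in windows of 300 bases, from 250 before the start base to 49 after it. Promoters were listed for 25 of the 32 carriers, with 46 starts. SLC7A11, SLC3A1, SLC7A2, SLC1A2, SLC6A6, SLC6A15 and SLC38A3 had no entry. The first motif was in 6 of the 46 windows (13%) against 3.62% of all 34941 windows, and the second in 7 of the 46 (15.2%) against 13.3% of all. Windows of 1 gene can overlap, so these shares are descriptions.

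The first motif lay in windows of SLC1A3, SLC1A4, SLC1A5, SLC38A1, SLC3A2 and SLC7A1, of which 4 were higher and 2 lower at 150 µg/ml. Carriers with a listed promoter were 12 higher and 4 lower at that dose. Windows of 4 of them are shown, 3 from carriers that rose and 1 from a carrier that fell, chosen after the matches were seen. The letters are the RefSeq sequence of GRCh38.p14, read 5′ to 3′ on the strand of the gene, with the matches in capitals.
SLC3A2 (chr11:62881449-62881748, plus strand): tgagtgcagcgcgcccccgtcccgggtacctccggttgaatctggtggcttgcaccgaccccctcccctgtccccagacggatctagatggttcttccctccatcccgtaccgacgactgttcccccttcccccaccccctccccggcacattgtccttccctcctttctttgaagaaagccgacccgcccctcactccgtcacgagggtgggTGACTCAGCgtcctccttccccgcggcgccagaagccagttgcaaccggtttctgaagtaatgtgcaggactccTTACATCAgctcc
SLC1A4 (chr2:64989149-64989448, plus strand): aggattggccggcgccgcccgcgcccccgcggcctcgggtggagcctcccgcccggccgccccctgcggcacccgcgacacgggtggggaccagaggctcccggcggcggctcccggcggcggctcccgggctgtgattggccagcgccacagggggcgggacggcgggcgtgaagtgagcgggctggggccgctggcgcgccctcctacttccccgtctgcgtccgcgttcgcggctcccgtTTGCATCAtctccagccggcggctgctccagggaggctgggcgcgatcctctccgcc
SLC1A5 (chr19:46784765-46785064, minus strand): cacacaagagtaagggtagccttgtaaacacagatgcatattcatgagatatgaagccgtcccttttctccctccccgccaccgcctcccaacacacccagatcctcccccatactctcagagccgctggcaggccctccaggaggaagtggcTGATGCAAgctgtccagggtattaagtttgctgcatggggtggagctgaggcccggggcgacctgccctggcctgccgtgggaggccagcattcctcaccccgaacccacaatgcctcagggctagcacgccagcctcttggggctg
SLC7A1 (chr13:29595639-29595938, minus strand): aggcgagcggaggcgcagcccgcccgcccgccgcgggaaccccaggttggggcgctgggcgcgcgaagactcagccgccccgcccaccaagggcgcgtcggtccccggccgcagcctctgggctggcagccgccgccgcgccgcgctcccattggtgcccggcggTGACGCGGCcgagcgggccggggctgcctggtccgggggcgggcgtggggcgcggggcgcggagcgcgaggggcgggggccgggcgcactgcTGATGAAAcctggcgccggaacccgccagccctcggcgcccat
In SLC3A2, TTACATCA is the first motif on the opposite strand, beginning 37 bases after the start base, and TGACTCAGC is the second motif, beginning 37 bases before it. The letters TGACTCA within that second match also spell the AP-1 motif. In SLC1A4, TTGCATCA is the first motif on the opposite strand, 7 bases before the start. The SLC1A5 window holds TGATGCAA 97 bases before the start, and the SLC7A1 window holds TGATGAAA 7 bases after the start and TGACGCGGC 85 bases before it. SLC1A5 and SLC3A2 have 3 listed starts each and SLC1A4 has 2, and the windows shown for these 3 genes lie inside the annotated gene. The match in SLC7A1, which fell, is to the same motif as in the 3 carriers that rose. A match is a run of letters and shows no binding.

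In the SLC1 family, the neutral exchangers rose and the glutamate carriers stayed low. SLC1A4 (ASCT1, chr2:64988477-65023865, plus strand) exchanges alanine, serine and cysteine. It had 12.5 and 12.3 CPM with DMSO, 34 and 32.8 CPM at 75 µg/ml and 51.2 and 50.5 CPM at 150 µg/ml, with narrow pairs and wide gaps between groups. SLC1A4 was 1.43 higher on the log2 scale at 75 µg/ml (SE 0.0967, edgeR adjusted p = 5.17e-09) and 2.03 higher at 150 µg/ml (SE 0.0937, edgeR adjusted p = 1.12e-11).

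SLC1A5 (ASCT2, chr19:46774883-46788594, minus strand) is the main glutamine exchanger of many tumour lines. Its libraries gave 195 and 172 CPM with DMSO, 253.5 and 253.4 CPM at 75 µg/ml and 341 and 340.1 CPM at 150 µg/ml. Each dose was above the one before it. The increase was 0.47 on the log2 scale at 75 µg/ml (SE 0.0552, edgeR adjusted p = 3.69e-06) and 0.89 at 150 µg/ml (SE 0.0548, edgeR adjusted p = 4.17e-10). Part of its exon length, 23.8%, is shared with other annotation, so its CPM may be a lower estimate.

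SLC1A3 (EAAT1, a glutamate and aspartate carrier best known from glia) had 4.09 and 7.52 CPM with DMSO, 4.94 and 5.4 CPM at 75 µg/ml and 3.08 and 3.3 CPM at 150 µg/ml. The DMSO libraries lay farther apart than those of either dose. SLC1A3 was lower at 150 µg/ml by the fit (log2 -0.86, SE 0.266, edgeR adjusted p = 0.0122). Without the second DMSO library the value was -0.36 (edgeR adjusted p = 0.335), and without the first library at 150 µg/ml it was -0.81 (edgeR adjusted p = 0.073). At 75 µg/ml SLC1A3 was not called (log2 -0.16, edgeR adjusted p = 0.65). SLC1A1 (EAAT3), at 2.47 to 4.03 CPM, was not called at 75 µg/ml (log2 -0.03, edgeR adjusted p = 0.935) or at 150 µg/ml (log2 -0.32, edgeR adjusted p = 0.332). SLC1A2 (EAAT2) had 1 to 6 reads per library and was not tested.

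Among the SLC6 carriers, which draw amino acids in with sodium and chloride, the glycine carrier rose strongly at both doses. SLC6A9 (GlyT1, chr1:43991500-44031467, minus strand) had 8.62 and 10.9 CPM with DMSO, 29.5 and 32 CPM at 75 µg/ml and 41.7 and 43.1 CPM at 150 µg/ml. No group overlapped another. Its log2 fold change was 1.66 at 75 µg/ml (SE 0.118, edgeR adjusted p = 8.35e-09) and 2.12 at 150 µg/ml (SE 0.115, edgeR adjusted p = 7.84e-11).

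SLC6A6 (TauT), which takes up taurine, was highest at the lower dose. It had 307 and 323 CPM with DMSO, 458 and 461 CPM at 75 µg/ml and 371 and 419 CPM at 150 µg/ml. Both doses were above DMSO, and 150 µg/ml lay between DMSO and 75 µg/ml. SLC6A6 was 0.54 higher on the log2 scale at 75 µg/ml (SE 0.0548, edgeR adjusted p = 5.62e-07) and 0.33 higher at 150 µg/ml (SE 0.0549, edgeR adjusted p = 7.6e-05). The step between doses was -0.22 (SE 0.0542, edgeR adjusted p = 0.00871), and without the first library at 150 µg/ml it was -0.12 (edgeR adjusted p = 0.188). SLC6A14, a carrier of neutral and cationic amino acids, had 0.427 to 1.57 CPM and was not called at 75 µg/ml (log2 -0.71, edgeR adjusted p = 0.273) or at 150 µg/ml (log2 0.31, edgeR adjusted p = 0.581). SLC6A15, a carrier of branched-chain amino acids and proline, was at 0 in all 6 libraries, which allows up to 3 reads or 0.175 to 0.192 CPM in a library, counting error only.

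**Figure D3:**
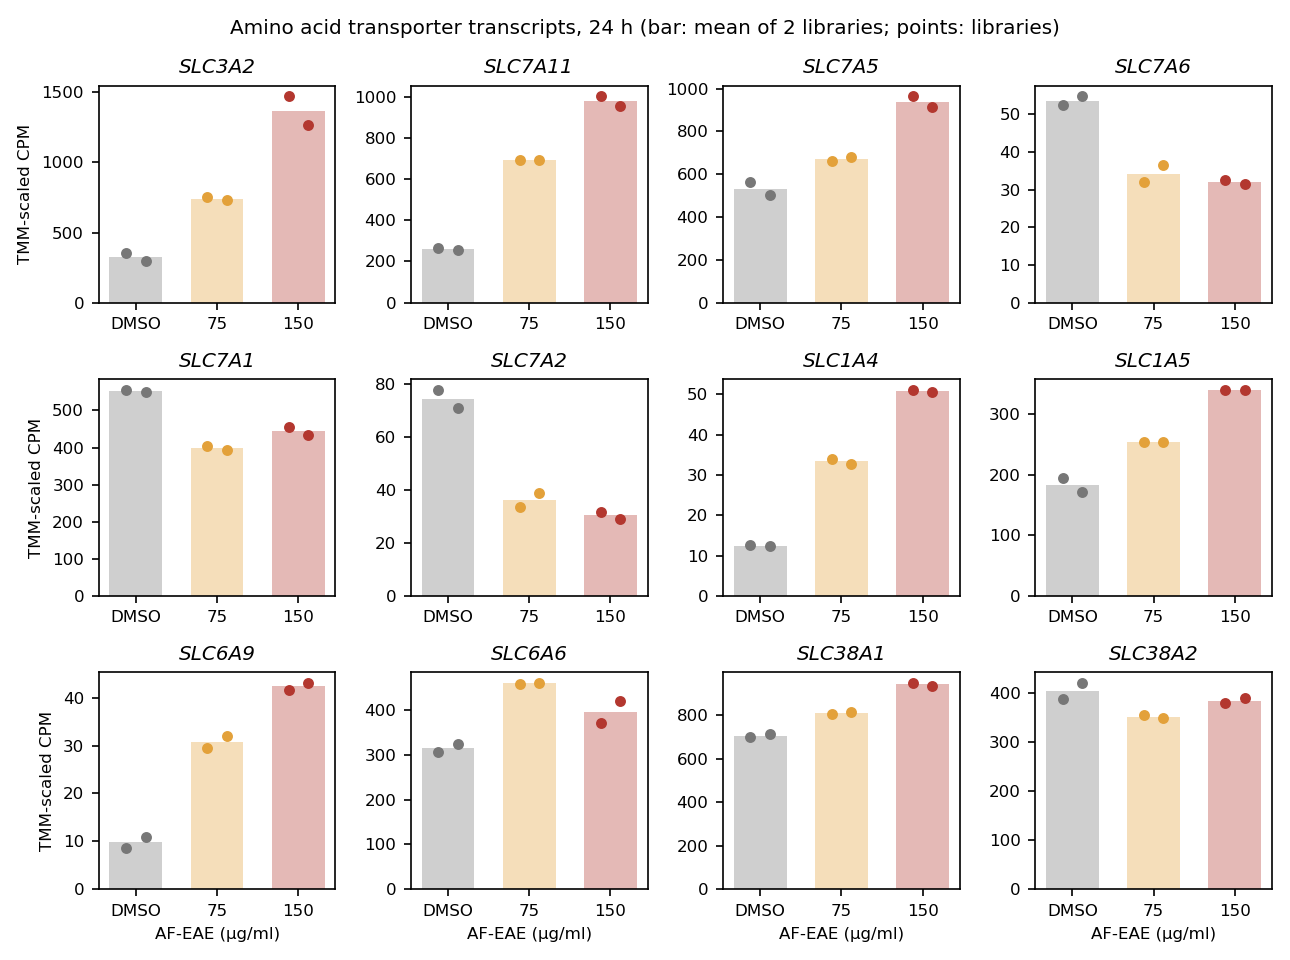
Level of 12 of the called carriers in TMM-scaled CPM, 1 panel per gene with its own axis, with points for libraries, bars for the mean of 2 libraries and the groups in order of dose. SLC3A2, SLC7A11, SLC1A4 and SLC6A9 climb at each dose, SLC7A2 and SLC7A6 drop at 75 µg/ml, and SLC6A6 is highest at 75 µg/ml.

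The SLC38 family couples amino acid uptake to sodium, and its abundant surface members SLC38A1 and SLC38A2 changed by small amounts. SLC38A1 (SNAT1), a glutamine loader, had 698 and 715 CPM with DMSO, 806 and 815 CPM at 75 µg/ml and 949 and 934 CPM at 150 µg/ml, in 3 separate steps. Its rise was 0.20 on the log2 scale at 75 µg/ml (SE 0.0417, edgeR adjusted p = 0.00105) and 0.41 at 150 µg/ml (SE 0.0416, edgeR adjusted p = 2.21e-07). SLC38A2 (SNAT2) is the family member classically induced by amino acid shortage. It had 389 and 421 CPM with DMSO, 355 and 349.6 CPM at 75 µg/ml and 380.2 and 390.1 CPM at 150 µg/ml. The higher dose overlapped DMSO and the lower dose was below both. SLC38A2 fell by 0.20 at 75 µg/ml (SE 0.0486, edgeR adjusted p = 0.00324) and was not called at 150 µg/ml (log2 -0.07, SE 0.0484, edgeR adjusted p = 0.227). With total counts in place of TMM the value at 75 µg/ml was -0.08 (edgeR adjusted p = 0.241), so the call at that dose rests on the scaling.

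SLC38A4, a carrier of neutral and cationic amino acids known from liver, had 39 and 45 reads with DMSO, 30 and 42 at 75 µg/ml, then 14 and 17 at 150 µg/ml. The libraries at 150 µg/ml lay below all others. SLC38A4 fell by 1.55 on the log2 scale at 150 µg/ml (SE 0.357, edgeR adjusted p = 0.00146) and was not called at 75 µg/ml (log2 -0.31, edgeR adjusted p = 0.481). SLC38A6, a less characterised member, had 12.3 and 11.8 CPM with DMSO, 15 and 16.9 CPM at 75 µg/ml and 19.7 and 20.8 CPM at 150 µg/ml. Its rise at 150 µg/ml was 0.74 (SE 0.121, edgeR adjusted p = 5.61e-05). The difference of 0.40 at 75 µg/ml (SE 0.124, edgeR adjusted p = 0.0166) was not called with DESeq2 (log2 0.38, adjusted p = 0.0722), without the second library at 75 µg/ml (edgeR adjusted p = 0.158) or without the second DMSO library (edgeR adjusted p = 0.0751). SLC38A3 and SLC38A5, both glutamine carriers, had 0 to 1 and 1 to 5 reads per library and were not tested.

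Lysosomal and other intracellular SLC38 members rose modestly at both doses. SLC38A9, the arginine-responsive lysosomal carrier that signals to mTORC1, had 21.6 and 20.9 CPM with DMSO, 31.3 and 29.8 CPM at 75 µg/ml and 32.6 and 31.7 CPM at 150 µg/ml. Its rise was 0.52 on the log2 scale at 75 µg/ml (SE 0.0947, edgeR adjusted p = 0.000287) and 0.60 at 150 µg/ml (SE 0.0942, edgeR adjusted p = 4.18e-05). SLC38A7, which exports glutamine and asparagine from lysosomes, had 70.6 and 66.4 CPM with DMSO, 85.6 and 81.7 CPM at 75 µg/ml and 86.7 and 87.7 CPM at 150 µg/ml. The treated libraries of both genes stood above DMSO. SLC38A7 was 0.29 higher at 75 µg/ml (SE 0.0639, edgeR adjusted p = 0.00166) and 0.35 higher at 150 µg/ml (SE 0.0637, edgeR adjusted p = 0.000186). SLC38A10, a further intracellular member, had 83.7 and 76.2 CPM with DMSO, 109 and 107.8 CPM at 75 µg/ml and 118 and 124 CPM at 150 µg/ml. Its groups did not overlap, with a log2 fold change of 0.44 at 75 µg/ml (SE 0.0621, edgeR adjusted p = 2.47e-05) and of 0.59 at 150 µg/ml (SE 0.0616, edgeR adjusted p = 3.32e-07).

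Of the 3 uniporters and 2 proton-coupled carriers, SLC43A1 alone was called, with a small rise. SLC43A1 (LAT3), a uniporter of branched-chain amino acids, had 17.7 and 17 CPM with DMSO, 21 and 21.7 CPM at 75 µg/ml and 20.7 and 21.4 CPM at 150 µg/ml. The treated libraries were above DMSO, and the doses overlapped. SLC43A1 was 0.30 higher at 75 µg/ml (SE 0.107, edgeR adjusted p = 0.0365) and 0.28 higher at 150 µg/ml (SE 0.107, edgeR adjusted p = 0.0381). Neither call held with DESeq2 (adjusted p = 0.141 at 75 µg/ml and 0.16 at 150 µg/ml), nor with any of the 4 libraries of its comparison left out. SLC43A2 (LAT4) had 0 reads with DMSO, 2 and 3 at 75 µg/ml, then 1 and 2 at 150 µg/ml, all within the floor of 3 reads. SLC16A10 (TAT1), a carrier of aromatic amino acids, had 0.604 to 1.9 CPM and was not called at 75 µg/ml (log2 -0.49, edgeR adjusted p = 0.394) or 150 µg/ml (log2 -0.87, edgeR adjusted p = 0.108).

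SLC36A1 (PAT1) exports small neutral amino acids from lysosomes with protons. It had 78.6 and 72.6 CPM with DMSO, 66.7 and 70.2 CPM at 75 µg/ml and 80.1 and 74.4 CPM at 150 µg/ml, and was not called at 75 µg/ml (log2 -0.14, edgeR adjusted p = 0.115) or 150 µg/ml (log2 0.03, edgeR adjusted p = 0.737). SLC36A4 (PAT4) had 66.8 and 65.5 CPM with DMSO, 66 and 64.9 CPM at 75 µg/ml and 78.7 and 66.1 CPM at 150 µg/ml, without a call at 75 µg/ml (log2 -0.01, edgeR adjusted p = 0.905) or 150 µg/ml (log2 0.13, edgeR adjusted p = 0.179). The first library at 150 µg/ml was the high one. Both genes were called higher at 150 µg/ml with total counts in place of TMM (SLC36A1 log2 0.22, edgeR adjusted p = 0.0123, and SLC36A4 log2 0.32, edgeR adjusted p = 0.00232), and SLC36A4 also without the second library at that dose (log2 0.25, edgeR adjusted p = 0.0204).

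The higher dose raised some carriers further than the lower one. At 150 µg/ml against 75 µg/ml, 10 carriers were higher and 2 lower, 12 of 25 or 48%, with 22% of all tested genes called, 9.51% higher and 12.5% lower. Of the 14 carriers higher at both doses, 9 were higher still at 150 µg/ml, 4 were not called between doses and SLC6A6 was lower. SLC3A2 rose further by 0.88 on the log2 scale (SE 0.0709, edgeR adjusted p = 1.78e-07). SLC7A7 added 1.04 (SE 0.29, edgeR adjusted p = 0.016), a call lost without the second library at 150 µg/ml (log2 0.85, edgeR adjusted p = 0.144) and without the second at 75 µg/ml (log2 0.97, edgeR adjusted p = 0.0798), and DESeq2 gave it no adjusted p. The alanine and serine exchanger SLC1A4 added 0.61 (SE 0.0825, edgeR adjusted p = 4.98e-05). Both main exchangers paired with SLC3A2 added about as much as each other, SLC7A11 0.50 (SE 0.0437, edgeR adjusted p = 4.96e-07) and SLC7A5 0.48 (SE 0.0522, edgeR adjusted p = 4.49e-06). The glycine carrier SLC6A9 added 0.46 (SE 0.0989, edgeR adjusted p = 0.00281). The glutamine exchanger SLC1A5 added 0.43 (SE 0.0537, edgeR adjusted p = 2.33e-05). The other carriers higher in this step were SLC38A1 (log2 0.22, edgeR adjusted p = 0.00125), SLC7A1 and SLC38A6. The call of SLC38A6 (log2 0.34, edgeR adjusted p = 0.042) was lost with DESeq2 (adjusted p = 0.126), with no filter on low counts (edgeR adjusted p = 0.0747) and with each of the 4 libraries of the comparison left out (edgeR adjusted p = 0.0557 to 0.29).

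The 4 carriers without a call between doses were SLC38A7 (log2 0.06, edgeR adjusted p = 0.556), SLC38A9 (log2 0.07, edgeR adjusted p = 0.631), SLC38A10 (log2 0.15, edgeR adjusted p = 0.0758) and SLC43A1, of which the first 3 are intracellular SLC38 members. SLC38A4 was lower at 150 than at 75 µg/ml (log2 -1.24, SE 0.363, edgeR adjusted p = 0.0208), a call lost without either library at 150 µg/ml or without the second at 75 µg/ml. The number of carriers called lower in this step ran from 0 to 3 as single libraries were left out, and was 0 without the first library at 150 µg/ml.

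**Figure D4:**
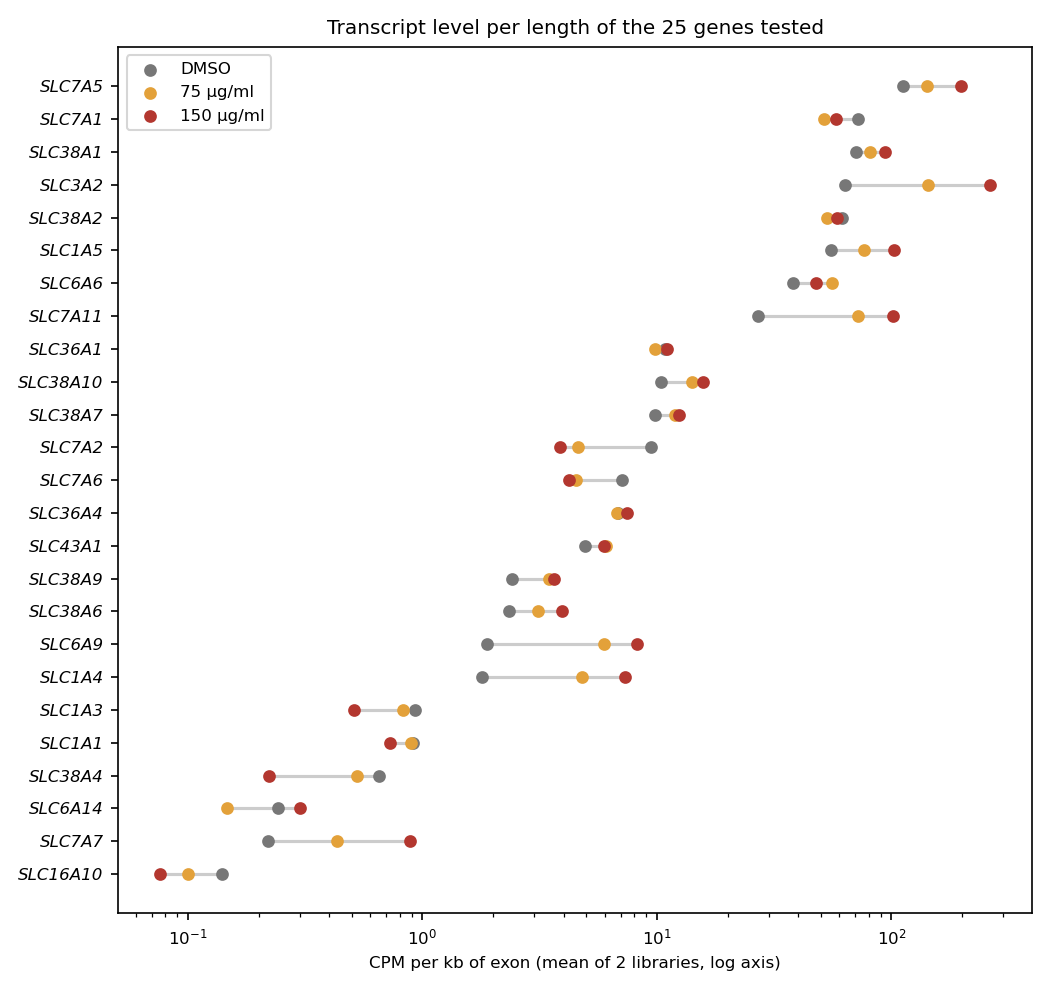
Mean level per kilobase of exon in each group, in CPM per kilobase on a log axis, for the 25 carriers tested, in order of their level with DMSO. SLC3A2 moves from the fourth place with DMSO (63.2 CPM per kilobase) to the first at 150 µg/ml (264 CPM per kilobase), and SLC7A1 from the second place (71.9) to the seventh (57.8), whereas with the longest transcript as length SLC3A2 is the first in both groups.

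Levels of different genes can be compared per kilobase of exon. By the union of exons, the leading carriers with DMSO were SLC7A5 at 112 CPM per kilobase, SLC7A1 at 71.9, SLC38A1 at 70.5, SLC3A2 at 63.2 (SD 8.05), SLC38A2 at 61.4 and SLC1A5 at 55.1. The library values of SLC7A1 (72.4 and 71.4) and SLC38A1 (69.7 and 71.4), neighbours in that order, did not differ beyond their spread, and neither did SLC3A2 (68.9 and 57.6) and SLC38A2 (58.9 and 63.8). The order depends on the length used. With the longest transcript as length, SLC3A2 led with DMSO at 147 CPM per kilobase, followed by SLC7A5 at 117, SLC38A1 at 87.6, SLC38A2 at 82.9 and SLC7A1 at 75.3. By the union of exons at 150 µg/ml the order was SLC3A2 at 264 (SD 27.9), SLC7A5 at 198 (SD 7.76), SLC1A5 at 102, SLC7A11 at 101.5 and SLC38A1 at 94. SLC7A11 was at the eighth place with DMSO (26.9 CPM per kilobase) and the fourth at 150 µg/ml, next to SLC1A5, and with the longest transcript at the eighth and the fifth. SLC6A9 stayed a minor transcript at 8.22 CPM per kilobase at 150 µg/ml in spite of its fold change, and so did SLC1A4 at 7.33.

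**Figure D5:**
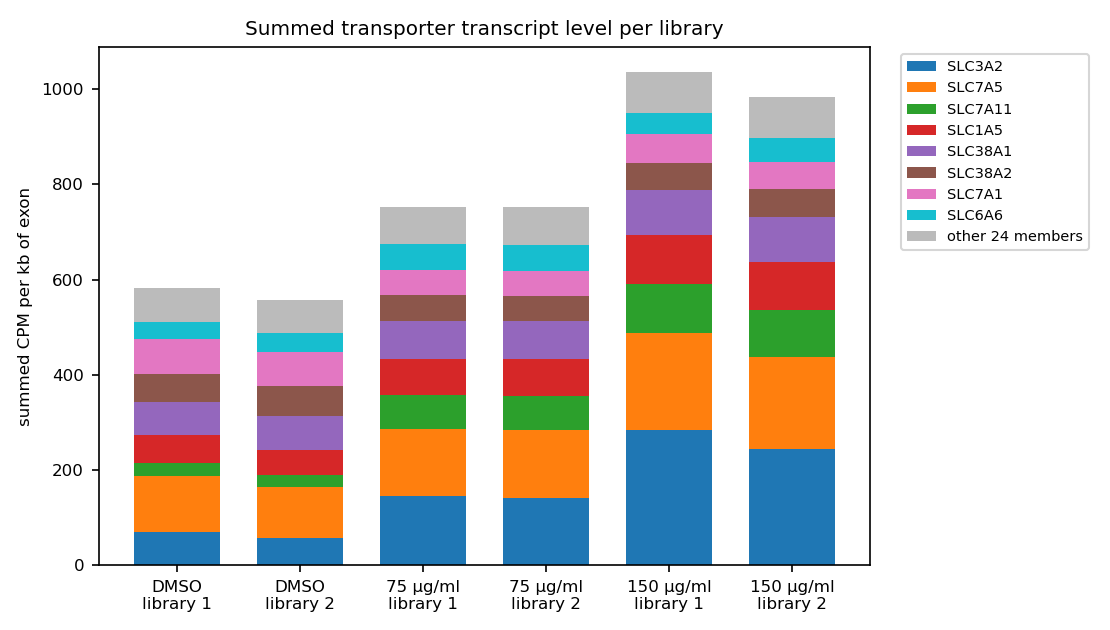
Summed level of all 32 carriers per library in CPM per kilobase of exon, as stacked bars with the 8 most abundant carriers shown singly. The sum is 583 and 557 with DMSO, 753 and 752 at 75 µg/ml, then 1037 and 984 at 150 µg/ml, and the SLC3A2 block grows at each dose.

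Summed over the 32 carriers, the level was 583 and 557 CPM per kilobase with DMSO, 753 and 752 at 75 µg/ml, then 1037 and 984 at 150 µg/ml. SLC3A2 made up 11.8% and 10.3% of the sum with DMSO, 19.4% and 18.7% at 75 µg/ml, then 27.4% and 24.9% at 150 µg/ml. With the longest transcript as length, its share was 20.8% and 18.3% with DMSO, 32% and 31.1% at 75 µg/ml, then 42.9% and 39.6% at 150 µg/ml, so the size of the share depends on the length while its order by dose does not. By the union of exons, the share of SLC7A11 was 4.69% and 4.76% with DMSO, 9.58% and 9.52% at 75 µg/ml, then 10% and 10.1% at 150 µg/ml. SLC7A1 went the other way, with 12.4% and 12.8% with DMSO, 6.97% and 6.79% at 75 µg/ml, then 5.7% and 5.73% at 150 µg/ml. SLC7A5 held 18.5% to 20.3% of the sum in all libraries by the union of exons. With the longest transcript its share was 16.1% and 15.1% with DMSO, 13.7% and 14.3% at 75 µg/ml, then 13.8% and 14% at 150 µg/ml. SLC38A2 shrank to 5.55% and 6.01% of the sum at 150 µg/ml, against 10.1% and 11.5% with DMSO, while its own level was not called at that dose.

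Genes that act around these carriers were counted in the same fit. Of all tested genes, 51.5% were called at 150 µg/ml, 25.8% higher and 25.7% lower, and 38.6% were called at 75 µg/ml. Of 15 tested genes of the amino acid deprivation response, 13 were higher and 2 lower at 150 µg/ml, with a median log2 fold change of 1.6, and 11 were higher and 1 lower at 75 µg/ml with a median of 1.01. TRIB3, a pseudokinase induced by ATF4, had 251 and 231 CPM at 150 µg/ml against 45.8 and 50.3 CPM with DMSO (log2 2.33, SE 0.0645, edgeR adjusted p = 2.43e-14). SESN2, a leucine sensor, was 2.87 higher (SE 0.0883, edgeR adjusted p = 7.39e-14) and CHAC1, which degrades glutathione, 3.66 higher (SE 0.158, edgeR adjusted p = 4.52e-12). EIF2AK4, which encodes GCN2, and its activator GCN1 were the 2 lower genes.

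Of 10 tested genes of cystine and glutathione use, which SLC7A11 supplies, 6 were higher and 2 lower at 150 µg/ml (median 0.64). That is 80% called, beside 51.5% of all tested genes. CTH, which makes cysteine from cystathionine, was 3.02 higher on the log2 scale (SE 0.1, edgeR adjusted p = 1.59e-13), GCLM, a subunit of the first enzyme of glutathione synthesis, 1.16 (SE 0.0546, edgeR adjusted p = 1.35e-11), and TXNRD1, a thioredoxin reductase, 1.00 (SE 0.0465, edgeR adjusted p = 1.3e-11). Of 12 tested genes of arginine, ornithine and polyamine use, fed by SLC7A1 and SLC7A2, 5 were higher and 5 lower (83.3% called, median -0.07). SMS, spermine synthase, fell by 1.08 (SE 0.0475, edgeR adjusted p = 6.02e-12) and AMD1, which provides the aminopropyl donor, fell by 0.85 (SE 0.0549, edgeR adjusted p = 7.29e-10), while SAT1, which breaks polyamines down, was 1.51 higher (SE 0.0952, edgeR adjusted p = 5.93e-10).

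For glutamine and glutamate use, 4 of 11 tested genes were higher and 6 lower at 150 µg/ml (median -0.21). That is 90.9% called, beside 51.5% of all tested genes. The higher ones were led by the transaminase genes GPT2 (log2 1.40, edgeR adjusted p = 2.5e-12) and PSAT1 (log2 1.33, edgeR adjusted p = 4.66e-13) and by GFPT1 of the hexosamine pathway (log2 1.25, edgeR adjusted p = 8.22e-12). Lysosomal sensing to mTORC1 had 14 higher and 6 lower of 32 tested genes (62.5% called, median 0.10). SEH1L was lower (log2 -0.64, edgeR adjusted p = 1.67e-08) and TSC1 higher (log2 0.40, edgeR adjusted p = 2.45e-05). Mitochondrial carriers of amino acids or glutathione had 1 higher and 8 lower of 13 tested (69.2% called, median -0.25). The lower ones were led by SFXN2 (log2 -1.10, edgeR adjusted p = 2.81e-07), SFXN1, a mitochondrial serine carrier (log2 -0.43, edgeR adjusted p = 1.71e-06), and SLC25A13, an aspartate and glutamate carrier (log2 -0.42, edgeR adjusted p = 3.01e-05). Of 26 other carriers, mostly of amino acids and peptides, 8 were tested, with 2 higher and 3 lower (62.5% called). Among these, SLC66A1, which exports cationic amino acids from lysosomes, was higher (log2 0.80, edgeR adjusted p = 1.85e-06), and SLC17A9, a vesicular nucleotide carrier (log2 -0.80, edgeR adjusted p = 2.3e-08), and SLC15A4, a lysosomal histidine and peptide carrier (log2 -0.40, edgeR adjusted p = 0.00286), were lower.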

How the data were processed

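RNA-seq covered 6 libraries of MDA-MB-231 cells, 2 each for DMSO and for AF-EAE at 75 and 150 µg/ml over 24 h. Total RNA was extracted and made into libraries with a NEBNext Ultra kit, per the labels' protocols. The authors deposited raw counts of reads, 1 table per library. HISAT2 2.2.1, HTSeq 2.0.2 and the build hg38 are named, per the submitters' processing notes. Their order, the annotation release, the counting options and the strand setting are not given. How reads were assigned where a gene and its antisense partner overlap is thus not known. The summary rows, which name no gene, held 17.8% to 18.93% of the counted reads and were left out. Of these, reads assigned to no single gene made up 10.95% to 11.48% of counted reads.

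Counts were tested with edgeR 4.0.16 (R 4.3.3), by its quasi-likelihood F-test after TMM scaling and its default low-count filter, with Benjamini-Hochberg adjustment over 15589 genes and calls at 0.05. All 6 libraries were fitted with a mean per group (3 residual and 13.8 prior degrees of freedom, biological coefficient of variation 5.08%). Each standard error (SE) given was derived from the test, as the size of the log2 fold change divided by the square root of F. Sample titles call the replicates biological, yet separate cultures are not mentioned. If the cultures were shared, p-values reflect library spread alone, which may be technical. Replicates differed by more than sampling noise, their chi-square over degrees of freedom being 3.651 for DMSO, 2.829 for 75 µg/ml and 3.6 for 150 µg/ml. The fit was tested on simulated data.

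Coordinates and exon lengths are those of GENCODE 29 on GRCh38, matched by identifier without version, and levels per kilobase divide CPM by the union of exons. Promoter windows come from RefSeq. Intervals and floors cover counting error only. Members with a mean of 10 CPM or more and a call against DMSO are given library by library, and from each further list the 3 called genes with the smallest p at 150 µg/ml. Some genes that this rule takes are not reported here. Other genes were named after their values were seen. The members and lists were chosen with earlier results of these data known. Alternatives were DESeq2 size factors, total counts, no filter or a filter of 5 CPM in 2 libraries, DESeq2 1.42.0, limma-voom (limma 3.58.1), the 2 groups alone, a replicate block, an adjusted p of 0.01, a log2 fold change of at least 1 in size, each library left out and the longest transcript as length.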

Additional observations from a re-analysis of the deposited data

How the results depend on the processing

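No called fold change of a carrier turned its sign under any alternative run. Over all carriers and comparisons, 963 fold changes from refits kept their side of the main threshold, 44 lost a call and 23 gained one. This tally leaves out the stricter adjusted p and the minimum fold change, which removed further calls. Requiring a log2 fold change of 1 left 4 carriers higher and 1 lower at 75 µg/ml, 5 higher and 2 lower at 150 µg/ml, and 1 higher and 1 lower between doses, with 936, 1827 and 226 of all genes called. The 2 carriers called lower between doses became 4 with no filter, and 1 with the filter of 5 CPM, with DESeq2 (which gave 5 carriers no adjusted p) and at an adjusted p of 0.01. At that threshold 1883 of all genes, in place of 3433, were called between doses. With single libraries left out, carriers called higher numbered 11 to 14 at 75 µg/ml, 13 to 14 at 150 µg/ml and 7 to 11 between doses. Those called lower numbered 4 each time at 75 µg/ml, 4 to 5 at 150 µg/ml and 0 to 3 between doses, and all genes 4657 to 5873, 6691 to 8021 and 1507 to 3714. Between doses the count of all genes was 1507 without the first library at 150 µg/ml and 1990 without the first at 75 µg/ml, and that of lower carriers was 0 without the first and 1 without the second library at 150 µg/ml, and 1 without the second at 75 µg/ml. With the longest transcript as length, the ratios to SLC3A2 at 150 µg/ml were 0.337 (SLC7A5), 0.00826 (SLC7A6) and 0.165 (SLC7A11).

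The replicate numbers are not said to mark a shared batch. Over all tested genes, same-numbered libraries deviated together by correlations of 0.059 (75 µg/ml and DMSO), 0.0412 (150 µg/ml and DMSO) and 0.00373 (both doses). Noise of low genes pulls such values toward 0, so they cannot show whether same-numbered libraries share a batch. With the replicate number as a block, 4 carriers in place of 2 were called lower between doses and 11 in place of 10 higher, and against DMSO it left 14 higher and 4 lower at 75 µg/ml, with 14 higher and 5 lower at 150 µg/ml. Depth limits the 7 untested carriers and the 6 tested ones under 10 CPM, and 2 libraries a group limit every p.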

Other observations

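SLC38A1 (chr12:46183063-46270017), SLC38A2 (chr12:46358189-46372867) and SLC38A4 (chr12:46764761-46832408) lie along chromosome 12 in this order, all on the minus strand. At 150 µg/ml against DMSO the first was higher (log2 0.41, edgeR adjusted p = 2.21e-07), the second was not called (log2 -0.07, edgeR adjusted p = 0.227) and SLC38A4 was lower (log2 -1.55, edgeR adjusted p = 0.00146). These neighbours of 1 family thus had values of differing sign at the same dose.

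SLC7A11-AS1, annotated on the strand opposite to SLC7A11, had 18 and 35 reads with DMSO, 94 and 122 at 75 µg/ml, then 224 and 169 at 150 µg/ml. It was 1.94 higher on the log2 scale at 75 µg/ml (edgeR adjusted p = 3.78e-05) and 2.77 higher at 150 µg/ml (edgeR adjusted p = 1.48e-07). SLC7A11 has many times its reads. With no strand setting stated for the counting, it is not known how reads were assigned where the pair overlaps.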
